A study of Mus musculus with 2 samples.

Results

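The genes described here are 10 receptor genes of natural killer (NK) and cytotoxic lymphocytes: Klrc1, Klrc2, Klrc3, Klrd1, Klrk1, Klrb1c, Klre1, Klra4, Klra8 and Ncr1. They were chosen by symbol, and all 10 were found among the 54838 genes of the deposited tables. All but Ncr1, 9 of them, encode killer lectin-like receptors. Ncr1 encodes NKp46, an immunoglobulin-type receptor and not a lectin, so the name of the family does not cover it. The cells were live immune cells sorted by FACS from mouse intestine, with gates on GFP and tdTomato. One library came from WT mice and 1 from DPF2 KO mice, and both genotypes had received 10 Gy of X-rays, so there is no unirradiated library. DPF2 is a subunit of the BAF chromatin remodelling complex. How long after the X-rays the gut was taken, how many mice of which sex were used, which part of Dpf2 is deleted in which cells, and which gated cells entered each library are not in the labels.

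Killer lectin-like receptors sit on NK cells, innate lymphoid cells (ILC) and part of the T cells, and they set the balance between activation and inhibition when such a cell meets a target. The products of Klrc1, Klrc2 and Klrc3 (NKG2A, NKG2C and NKG2E) reach the surface paired with CD94, the product of Klrd1, and the CD94 heterodimers bind the class Ib molecule Qa-1, encoded by H2-T23. NKG2A carries inhibitory motifs, while NKG2C signals through the adaptor DAP12, encoded by Tyrobp. In the gut, intraepithelial CD8 T cells are known to carry several of these receptors as well.

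Each genotype had 1 library, so no test was possible and no p-value is given. Cells of a library are not replicates. Levels are unique molecular identifiers (UMIs, each standing for 1 captured RNA molecule) summed over a cell class and scaled to counts in 1000000 UMIs of that class (CPM), and all intervals are 95% intervals that cover counting error only. After filtering, 10259 cells were kept in WT (median 4543 UMIs) and 8265 in KO (median 4112 UMIs), and 24 cell barcodes occurred in both libraries. Dpf2 itself, the check of the labels, had 1916 UMIs in WT and 885 in KO over all kept cells, or 33.3 and 19.6 CPM. In NK-like cells it had 27 and 4 UMIs, in CD8 T-like cells 148 and 23, and in ILC 67 and 53. A tag outside the deleted part of the gene would not show the deletion.

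Cell classes were named from marker genes after clustering without the receptor genes, so a class was not made from the genes that are compared across it. The NK-like class held 145 WT and 69 KO cells, and 17 of its 18 markers were detected in each library, with only S1pr5 at 0. ILC1-like, ILC2-like and ILC3-like cells numbered 108, 119 and 83 in WT and 144, 115 and 169 in KO. CD8 T-like cells numbered 1046 and 318. Different clusters held most of them in the 2 libraries: cluster 2, led by Ly6c2, held 672 of the WT and 40 of the KO cells, cluster 5, led by Gzma, held 274 and 79, and cluster 7, led by Bend4 and Eomes, held 100 and 199. No cluster took the gamma-delta name, and 31 WT and 18 KO cells of T cell clusters were assigned to gamma-delta T cells by their receptor UMIs, too few to compare genotypes. Some RNA of other cells was present in every class: B cell markers summed to 514 CPM in WT and 325 in KO NK-like cells, and to 282 and 408 in CD8 T-like cells.

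Of the genes, 9 lie in the NK gene complex on chromosome 6 (GRCm38), between positions 128778485 and 130129898, a span of 1.35 Mb. Klrc3 (129639064 to 129643337), Klrc2 (129647496 to 129660689) and Klrc1 (129666015 to 129678973) are neighbours on the minus strand, followed by Klra4 (130043731 to 130067271) and Klra8 (130115226 to 130129898) on the same strand. Klre1 (129577905 to 129585827) and Klrd1 (129591782 to 129598775) are on the plus strand, and Klrk1 (129610323 to 129623864) and Klrb1c (128778485 to 128789215) on the minus strand. Ncr1 is on chromosome 7 (4337724 to 4345164, plus strand).

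The 250 bases before the RefSeq start of the Klrc and Klra genes (build GRCm38.p6) are shown. They were chosen because the Klrc trio was found in CD8 T-like cells and was lower in KO than in WT NK-like cells. Klra4 and Klra8, in contrast, were nearly limited to NK-like cells. Of the 10 genes, 9 had an entry in the RefSeq promoter table, and where it listed more than 1 window the first is shown. Capitals mark the core motif of Runx factors, ACCACA or its reverse complement TGTGGT. The Klrc1 window is chr6:129678974-129679223, minus strand, that of Klrc2 chr6:129660597-129660846, minus strand, and that of Klrc3 chr6:129643289-129643538, minus strand. The Klra4 window is chr6:130067272-130067521, minus strand, and that of Klra8 chr6:130129899-130130148, minus strand.
Klrc1: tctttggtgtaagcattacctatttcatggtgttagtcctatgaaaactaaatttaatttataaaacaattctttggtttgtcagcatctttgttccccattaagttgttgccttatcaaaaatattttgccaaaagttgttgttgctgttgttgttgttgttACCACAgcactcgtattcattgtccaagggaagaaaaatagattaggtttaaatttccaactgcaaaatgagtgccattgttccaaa
Klrc2: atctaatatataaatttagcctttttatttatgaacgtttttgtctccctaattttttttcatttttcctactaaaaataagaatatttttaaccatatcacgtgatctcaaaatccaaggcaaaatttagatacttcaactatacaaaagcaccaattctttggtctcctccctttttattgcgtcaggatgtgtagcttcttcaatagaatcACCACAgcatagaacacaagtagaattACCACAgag
Klrc3: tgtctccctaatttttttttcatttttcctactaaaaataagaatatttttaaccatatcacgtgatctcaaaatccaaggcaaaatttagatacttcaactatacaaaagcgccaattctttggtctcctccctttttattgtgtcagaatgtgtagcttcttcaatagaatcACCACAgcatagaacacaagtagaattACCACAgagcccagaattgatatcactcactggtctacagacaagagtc
Klra4: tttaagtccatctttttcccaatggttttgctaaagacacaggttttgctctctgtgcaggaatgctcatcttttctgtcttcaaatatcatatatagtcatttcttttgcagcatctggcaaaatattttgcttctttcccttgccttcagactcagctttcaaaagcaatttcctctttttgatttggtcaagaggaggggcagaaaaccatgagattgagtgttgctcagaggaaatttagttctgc
Klra8: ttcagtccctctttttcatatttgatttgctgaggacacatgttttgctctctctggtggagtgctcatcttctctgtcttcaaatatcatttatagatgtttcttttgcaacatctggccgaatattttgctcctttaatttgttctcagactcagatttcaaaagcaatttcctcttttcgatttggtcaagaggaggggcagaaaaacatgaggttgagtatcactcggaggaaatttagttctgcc

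The Klrc2 and Klrc3 windows were nearly one sequence, with 206 of 210 aligned columns identical (98.1%). Both held 2 Runx cores, at the same spacing, starting 36 and 9 bases before the listed start of Klrc2 and 76 and 49 bases before that of Klrc3. Klrc1 held 1 core, 87 bases before its start, and its window shared 52% of 204 aligned columns with that of Klrc2, near the 53.3% it shared with the Ncr1 window on another chromosome. Klra4 and Klra8 were alike in 212 of 249 columns (85.1%) and held no core. At least 1 core was found in 7 of the 9 windows, against 14.2% of 27025 promoters of that length, and 2 or more in 1.26% of them. The T-box core (TCACAC or GTGTGA) was found in 1 of the 9 windows, that of Ncr1, and in 12.2% of all. A match is a description of the letters only.

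The transcripts of close relatives also share sequence, which limits how finely the counts can be split. Of all 90-base stretches in the annotated Klrc1 transcripts, 18.6% also occurred in Klrc2, and 21.9% of those in the last 500 bases of its coding transcripts. For Klrc2 the share in the last 500 bases was 8.49%, with Klrc1 and Klrc3 as partners over the whole transcripts, and for Klrc3 it was 5.92%, with Klrc2 as partner. For Klrb1c it was 11.4%, with Gm44511 and Klrb1a. For Klra8 16.1% of all stretches occurred in Klra9 or Klra14-ps, but none in the last 500 bases. Klrd1, Klrk1, Klre1, Klra4 and Ncr1 shared no such stretch with another gene. No source used here says how reads from shared stretches were counted, so the split between Klrc1, Klrc2 and Klrc3 is uncertain to that extent.

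The partner chain Klrd1 was found in NK-like, ILC1-like, CD8 T-like and gamma-delta T cells and was near background in ILC2 and ILC3. NK-like cells had 118 Klrd1 UMIs in WT (167 CPM, 139 to 200) and 51 in KO (136 CPM, 101 to 179). CD8 T-like cells had 532 UMIs in WT (132 CPM, 121 to 143) and 134 in KO (95.7 CPM, 80.2 to 113). The order was the same in both libraries, with NK-like over CD8 T-like ratios of 1.27 (1.03 to 1.56) and 1.42 (1.01 to 1.98), just above equal levels. In KO the order turned with other clusterings: Klrd1 was at 59.98 CPM in NK-like and 107 in CD8 T-like cells with each library clustered alone, and at 70.7 and 92.6 at resolution 0.5. In those settings no ILC1 class was named, and the KO NK-like class held 221 and 263 cells in place of 69. ILC1-like cells had 54 UMIs in WT (105 CPM) and 19 in KO (25.1 CPM), and ILC3-like cells had 0 in both. B cells, which should lack the transcript, were at 2.82 and 1.73 CPM, with a Klrd1 UMI in 1.01% and 0.628% of cells against 46.9% and 47.8% of NK-like cells (median depths 3500 and 3357 UMIs in B and 4232 and 4938 in NK-like cells). Gamma-delta T cells had 24 UMIs in 10 of 31 cells in WT and 6 UMIs in 3 of 18 cells in KO.

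Klrc1 and Klrc2 had higher levels in CD8 T-like than in NK-like cells in both libraries, and Klrc3 only in KO. Klrc1, which encodes the inhibitory NKG2A, had 1957 UMIs in WT CD8 T-like cells (484 CPM, 463 to 506) and 166 in NK-like cells (236 CPM, 201 to 274). In KO the values were 639 UMIs (456 CPM, 422 to 493) and 46 UMIs (123 CPM, 89.9 to 164). The level in NK-like cells was thus lower than in CD8 T-like cells in both libraries, with ratios of 0.487 (0.413 to 0.571) and 0.269 (0.195 to 0.363). Klrc2, which encodes the activating NKG2C, was at 309 CPM in CD8 T-like and 204 in NK-like cells of WT. In KO it was at 301 and 98.7, and the ratios were 0.662 and 0.328. With classes from marker UMIs the WT levels of Klrc2 were nearer, at 206 and 184 CPM. In KO, CD8 T-like cluster 5 had Klrc2 at 79.6 CPM, below the NK-like level. Klrc3, for NKG2E, had a ratio of 0.952 (0.728 to 1.23) in WT, an interval that includes 1, and 0.308 (0.137 to 0.607) in KO, where NK-like cells held only 9 Klrc3 UMIs.

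ILC1-like cells were close to NK-like cells in Klrc1 and Klrc2. Their Klrc1 level was 211 CPM in WT and 141 in KO, and their Klrc2 level 230 and 92.5. The NK-like over ILC1-like ratio of Klrc1 was 1.12 in WT and 0.868 in KO, and that of Klrc2 0.888 and 1.07, and all of these intervals include 1. Klrc3 was higher in NK-like than in ILC1-like cells of WT, at 99.3 and 54.6 CPM (70 and 28 UMIs). In KO it was at 24.0 and 21.2 CPM (9 and 16 UMIs). In ILC2-like cells the 2 libraries held 5 and 7 Klrc1 UMIs, and in ILC3-like cells 4 and 3. Gamma-delta T cells held 9 and 4 Klrc1 UMIs and 12 and 1 Klrc2 UMIs. Of all Klrc1 UMIs in kept cells, 63.6% in WT and 52.2% in KO came from CD8 T-like cells and 5.39% and 3.76% from NK-like cells.

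**Figure D1:**
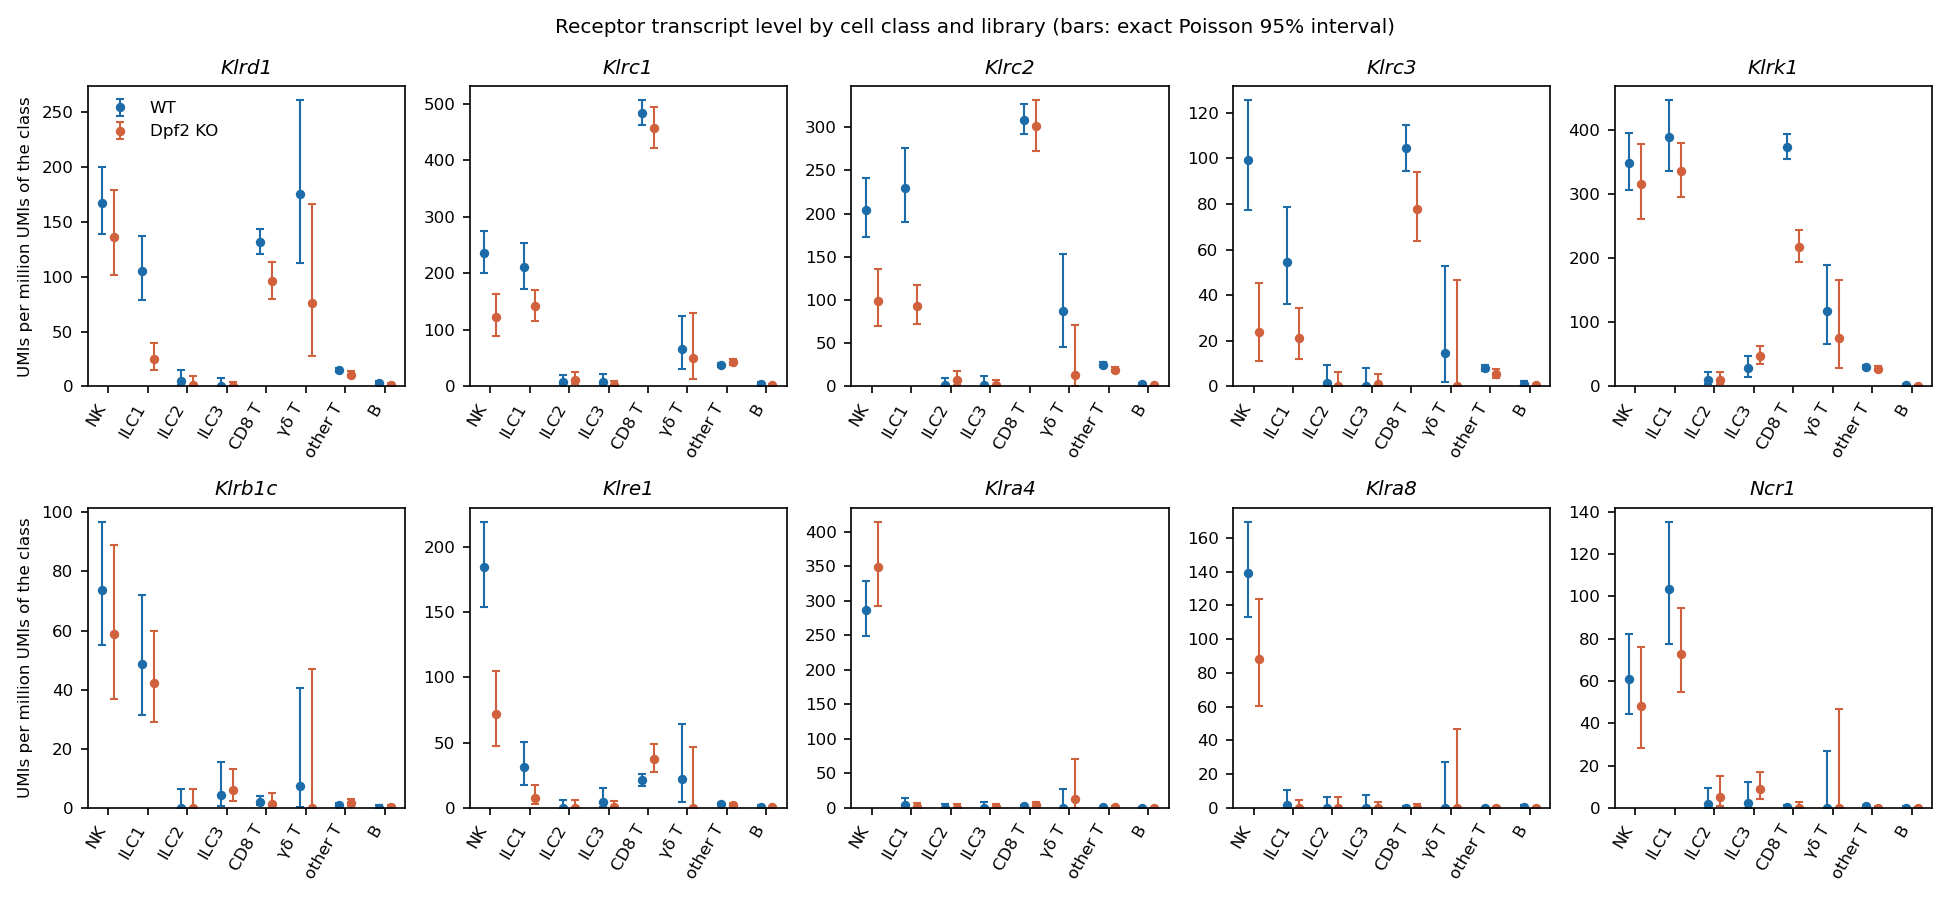
Level of each receptor gene (y axis, CPM, own scale per gene) in 8 cell classes (x axis) of the WT and the Dpf2 KO library. Points are summed levels and bars exact Poisson 95% intervals. Klra4 and Klra8 stand above the other classes in NK cells, Ncr1 and Klrb1c in NK and ILC1 cells, and Klrc1 and Klrc2 reach their highest level in CD8 T cells.

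Klrk1, which encodes the activating receptor NKG2D, was the member shared most evenly. It stood at 348 CPM in WT NK-like cells (245 UMIs), 388 in ILC1-like (199 UMIs) and 373 in CD8 T-like cells (1509 UMIs), levels whose intervals overlap. In KO the levels were 315 (118 UMIs), 336 (254 UMIs) and 218 (305 UMIs). CD8 T-like cells were thus lower than NK-like and ILC1-like cells in KO. The NK-like over CD8 T-like ratio was 1.44 (1.16 to 1.79) there against 0.932 (0.811 to 1.07) in WT. ILC3-like cells held 13 and 47 Klrk1 UMIs (28.1 and 47.2 CPM). Hcst, the gene of the NKG2D adaptor DAP10, was at 223 and 216 CPM in NK-like and 326 and 369 in CD8 T-like cells.

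The 2 Ly49 genes among the members, Klra4 and Klra8, were found mostly in NK-like cells. A T cell cluster with Zbtb16 among its leading genes (45 WT and 46 KO cells) held 6 and 8 Klra4 UMIs (24.8 and 33.6 CPM). It held 0 Klra8 UMIs in both libraries. Ly49 genes outside the members were not all limited in this way: Klra1 was at 128 and 42.0 CPM in that cluster and 61.0 and 117 in NK-like cells. Klra4, which encodes the activating receptor Ly49D, had 202 UMIs in WT and 131 in KO NK-like cells (287 and 349 CPM) against 11 and 5 UMIs in the far more numerous CD8 T-like cells, ratios of 105 (57.6 to 214) and 97.8 (40.9 to 306). Klra8, for Ly49H, had 98 and 33 UMIs in NK-like cells and 1 and 0 in CD8 T-like cells. With the 1 UMI the WT ratio was 562 (98.6 to 22434), and in KO the level was at least 41.1-fold higher in NK-like cells, against a floor of 3 UMIs in the class. ILC1-like cells held 2 and 1 Klra4 UMIs and 1 and 0 Klra8 UMIs, so these genes parted NK-like from ILC1-like as well as from CD8 T-like cells. Both were found in a part of the NK-like cells, Klra4 in 42.1% of WT and 52.2% of KO cells and Klra8 in 26.2% and 21.7%.

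Ncr1 and Klrb1c had another order, with ILC1-like cells included. Ncr1, for the natural cytotoxicity receptor NKp46, was at 61.0 CPM in WT NK-like cells (43 UMIs) and 103 in ILC1-like cells (53 UMIs), and in KO at 48.0 (18 UMIs) and 72.7 (55 UMIs). The CD8 T-like cells held 1 Ncr1 UMI in WT and 0 in KO, and ILC3-like cells, part of which carry NKp46 in the gut, held 1 and 9 UMIs (2.16 and 9.03 CPM). Klrb1c, for the NK cell marker NK1.1, had 52 and 22 UMIs in NK-like cells, 25 and 32 in ILC1-like and 8 and 2 in CD8 T-like cells. Klre1, for a receptor that pairs with the products of Klri1 or Klri2, lay between the patterns. It was at 184 CPM in WT NK-like and 21.0 in CD8 T-like cells, a ratio of 8.78 (6.63 to 11.7), and in KO at 72.0 and 37.1, a ratio of 1.94 (1.17 to 3.14). The KO order turned to 25.7 and 35.8 CPM at resolution 0.5 and to 28.3 and 36.6 CPM with each library clustered alone.

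In all, 6 of 10 members had a higher level in NK-like than in CD8 T-like cells in WT and 7 of 10 in KO, where Klrk1 joined. The WT count was 8 with classes from marker UMIs, where Klrc3 (101 and 63.6 CPM) and Klrk1 (331 and 242 CPM) turned. The KO count was 5 at resolution 0.5 and with each library clustered alone, where Klrd1 and Klre1 turned. Shares over all genes are given for those with 100 UMIs or more in the 2 classes together and a UMI in 5% or more of the cells of 1 class, a rule met by 7 members in WT and 6 in KO. Of these, 3 were higher in NK-like cells in WT and 3 in KO, against 42.8% of all genes in WT and 48.2% in KO. After 10 CPM had been added to each level, Klre1 and Klra4 were at least 2-fold higher in WT and Klra4 in KO, a distance reached by 3.4% and 4.64% of all genes. Klra4 met the rule only through NK-like cells, with 202 and 131 UMIs there and 11 and 5 in CD8 T-like cells. Its call is therefore not independent of the rule. Klrc1 was at least 2-fold lower in NK-like cells in WT, and all 3 Klrc genes in KO, against 4.75% and 6.15% of all genes.

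**Figure D2:**
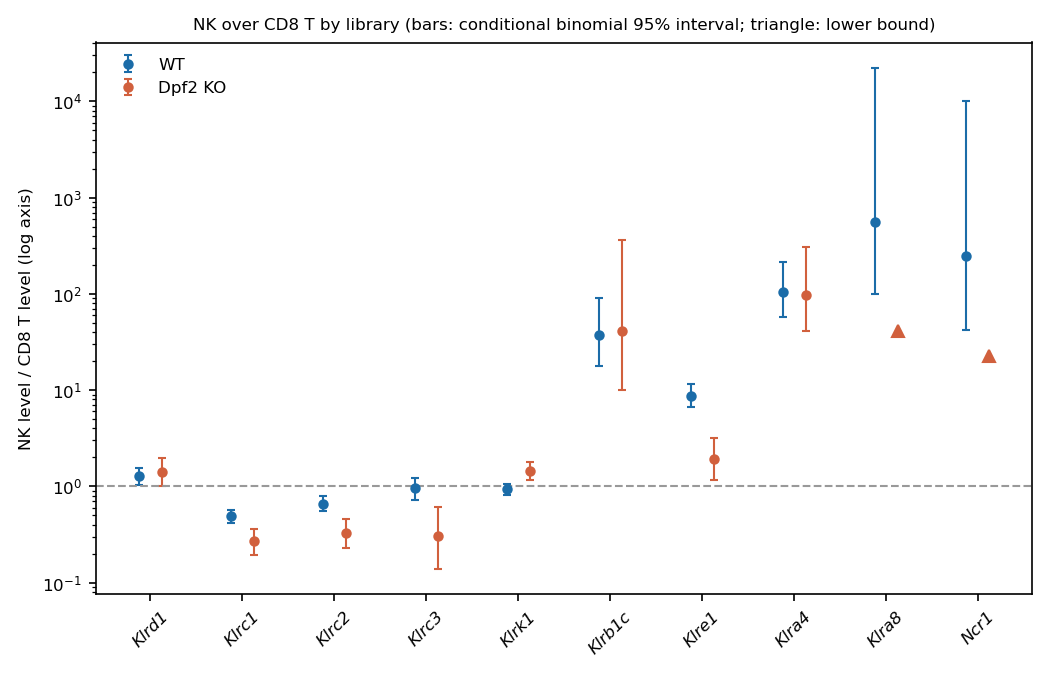
Ratio of the level in NK cells to that in CD8 T cells (y axis, log scale) for each receptor gene (x axis) in each library. Bars are conditional binomial 95% intervals, triangles are lower bounds where CD8 T cells held 0 UMIs, and the dashed line marks equal levels. Klrc1 and Klrc2 lie below the line in both libraries and Klrb1c, Klra4, Klra8 and Ncr1 more than 10-fold above it.

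Lymphocytes were not the only source. A cluster led by Ccl22 and Ccl17, which took no name under the marker rule, held 28.2% of all Klrd1 UMIs in WT and 53.1% in KO. Its Klrd1 level was 96.7 CPM in WT (446 UMIs in 514 cells) and 87.6 in KO (493 UMIs in 534 cells). Its Klrk1 level was 87.4 and 109 CPM, but its Klrc1 level only 10.4 and 3.2. Plasmacytoid dendritic-like cells had Klrd1 at 116 and 69.5 CPM, with 2 and 0 Klrc1 UMIs, and conventional dendritic-like cells had Klrk1 at 90.4 and 141. After every cell was thinned to 1000 UMIs, 8.55% and 8.9% of the cells of the Ccl22-led cluster held a Klrd1 UMI, against 0.186% and 0.187% of B cells. In these cells Klrd1 was thus found with few UMIs of its Klrc partners.

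**Figure D3:**
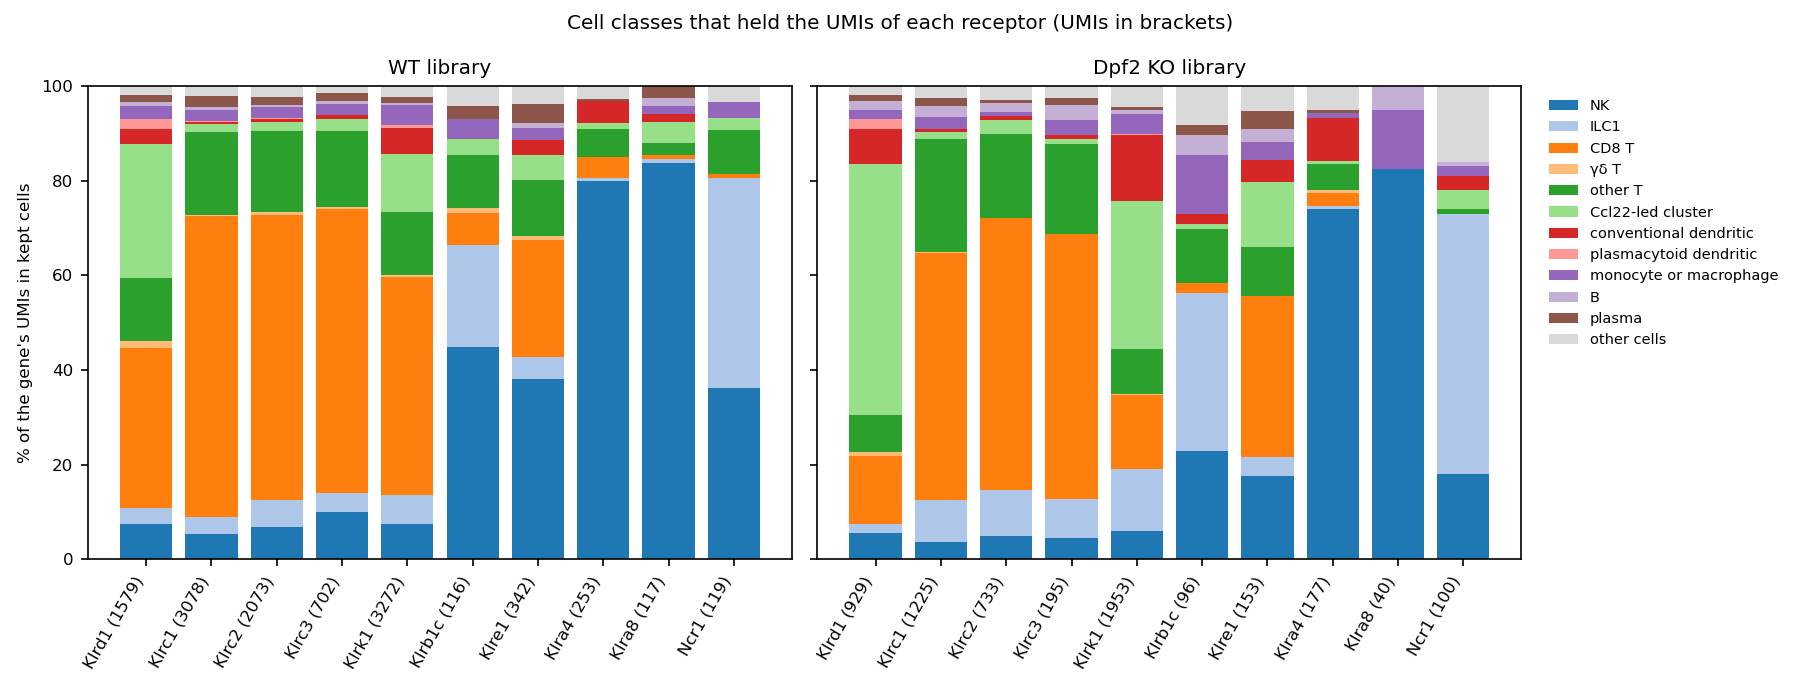
Share of the UMIs of each receptor gene in kept cells (y axis, percent) by the cell class that held them, in the WT and the Dpf2 KO library, with the number of UMIs in brackets on the x axis. CD8 T cells hold the largest part for Klrc1, Klrc2 and Klrc3, NK cells for Klra4 and Klra8, and the Ccl22-led cluster 28.2% (WT) and 53.1% (KO) for Klrd1.

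Whether Klrc and Klrd1 transcripts met in the same cell was asked within each class, where cells with a Klrc1 UMI were set beside cells of the class without one. In WT CD8 T-like cells thinned to 1000 UMIs, 40 of 370 Klrc1 cells held a Klrd1 UMI (10.8%, 7.84 to 14.4) and 65 of 668 cells without Klrc1 (9.73%, 7.59 to 12.2). In KO the numbers were 6 of 94 (6.38%) and 18 of 223 (8.07%). In WT NK-like cells they were 6 of 25 (24.0%, 9.36 to 45.1) and 19 of 120 (15.8%, 9.81 to 23.6), and in KO only 8 NK-like cells held a Klrc1 UMI at this depth, 0 of them with Klrd1. The intervals of cells with and without Klrc1 overlapped in each of these pairs, and the difference itself was not tested. Thinning left out 8 WT and 1 KO CD8 T-like cells and 0 and 1 NK-like cells.

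At full depth, where cells with more UMIs have more chances to show both genes, the shares were higher. A Klrd1 UMI was found in 45% of Klrc1 cells and 48.2% of the others in WT NK-like cells, in 31.8% and 55.3% in KO, in 32.7% and 26.1% in WT CD8 T-like cells and in 22.1% and 26.1% in KO. For Klrc2 the thinned shares in WT CD8 T-like cells were 14.3% (34 of 238) and 8.88% (71 of 800), and 6.85% and 7.79% in KO. For Klrc3 they were 11% and 10.0% in WT. Of WT NK-like cells with a Klrd1 UMI at full depth, 46 of 68 also held a UMI of at least 1 Klrc gene, and in KO 17 of 33. Of Klrd1 cells among CD8 T-like cells, 245 of 318 (77.0%) did in WT and 52 of 75 (69.3%) in KO. In cells of these classes with no Klrd1 UMI, a Klrc UMI was found in 45 of 77 and 20 of 36 NK-like cells and in 514 of 728 (70.6%) and 168 of 243 (69.1%) CD8 T-like cells.

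Klrc1 and Klrc2 were also set side by side. In WT CD8 T-like cells thinned to 1000 UMIs, Klrc1 was found in 122 of 238 Klrc2 cells (51.3%, 44.7 to 57.8) and in 248 of 800 others (31.0%, 27.8 to 34.3). In KO the shares were 47.9% (35 of 73) and 24.2% (59 of 244). In WT NK-like cells they were 39.1% (9 of 23) and 13.1% (16 of 122), and in WT ILC1-like cells 55.6% (10 of 18) and 9.09% (8 of 88). At full depth Klrc1 was found in 86.6% and 87.3% of Klrc2 cells in CD8 T-like cells of WT and KO, against 41.7% and 38.1% of the others. The shared stretches of these transcripts bear on this pair, and their part in it was not tested. Klrk1 and Klrc1 were compared in the same way. In thinned WT CD8 T-like cells, Klrc1 was found in 48.4% of 287 Klrk1 cells and 30.8% of 751 others. In KO the shares were 33.9% of 56 and 28.7% of 261. At 2000 UMIs the KO shares were 65.4% (54.0 to 75.7) and 45% (38.4 to 51.8), and at full depth 73.0% and 55.7%. By cluster, the KO shares at full depth were 70.6% and 69.6% in cluster 2, 22.7% and 28.1% in cluster 5 and 86.2% and 67.0% in cluster 7. The WT shares were 80.2% and 54.7%, 67.5% and 44.2%, and 77.4% and 57.4% in these clusters.

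**Figure D4:**
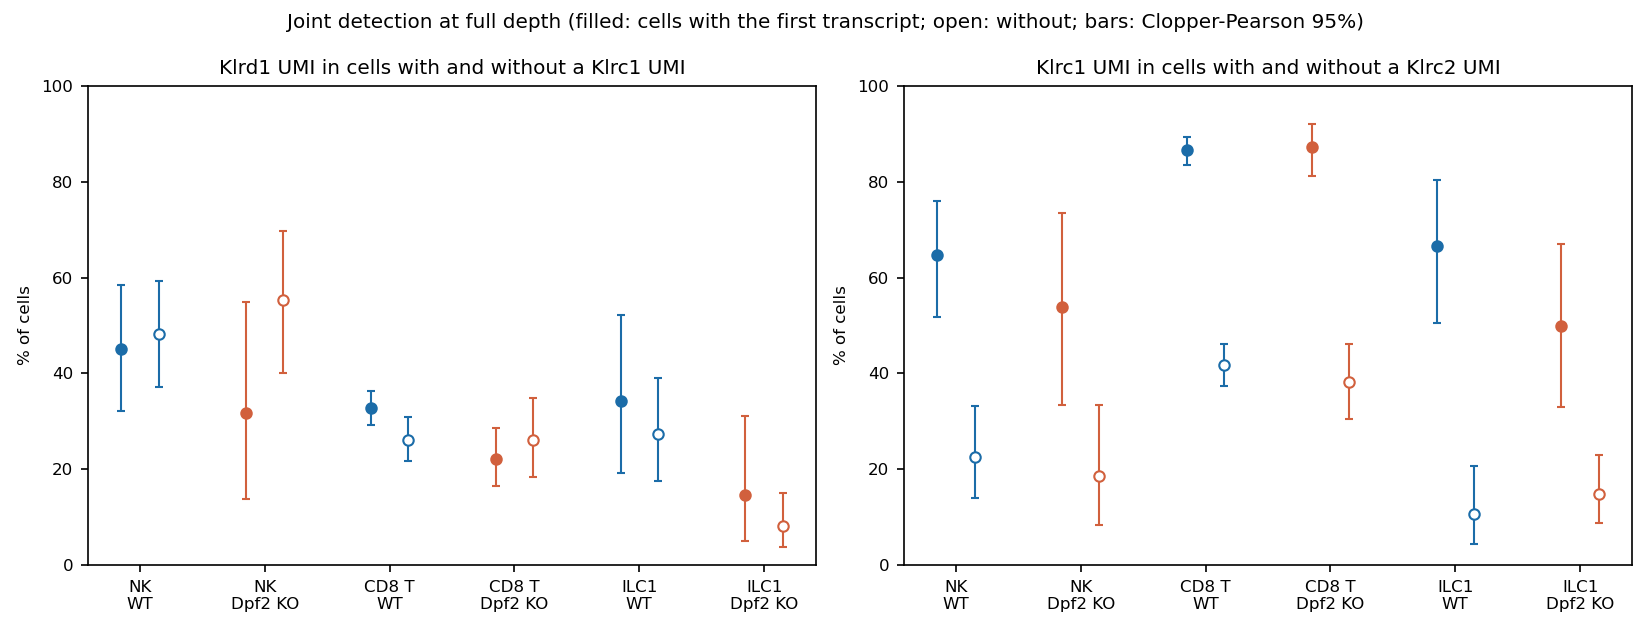
Joint detection at full depth by class and library (x axis): left, percent of cells with a Klrd1 UMI among cells with (filled) and without (open) a Klrc1 UMI, right, percent with a Klrc1 UMI among cells with and without a Klrc2 UMI (blue WT, orange KO). Bars are Clopper-Pearson 95% intervals. On the left the intervals of filled and open points overlap in every pair, on the right the filled points are higher in all 6.

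NK-like cells carried many of these transcripts at once. At full depth 115 of 145 WT cells (79.3%) held UMIs of at least 3 members, and 49 of 69 KO cells (71.0%). In CD8 T-like cells the shares were 46.4% and 40.9%, and in ILC1-like cells 47.2% and 25%. Thinned to 1000 UMIs they were 22.1% and 10.3% in NK-like, 10.3% and 5.36% in CD8 T-like and 9.43% and 2.78% in ILC1-like cells, and 0 in B cells of either library.

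In NK-like cells the Klrc genes and Klre1 were lower in the KO library, while the intervals of Klrd1, Klrk1 and Klra4 include equal levels. The log2 ratio of Klrd1 (-0.28) depended on the clustering, with -0.78 at resolution 0.5 and -1.28 with each library clustered alone. That of Klra4 (0.28) was -0.45 and -1.19 there. With each library clustered alone, the WT level of Klra4 was 284 CPM (287 as reported) but the KO level 119 (349 as reported). The KO NK-like class was larger in that setting and no ILC1 class was named, so it was not the class used here. Klrc1 was at 236 CPM in WT and 123 in KO, a ratio of 0.521 (0.367 to 0.726), and Klrc2 at 204 and 98.7, a ratio of 0.483 (0.327 to 0.697). Klrc3, with 70 and 9 UMIs, had a ratio of 0.242 (0.106 to 0.486). Klre1 was at 184 and 72.0, a ratio of 0.39 (0.248 to 0.594), and Klra8 at 139 and 88.0, a ratio of 0.633 (0.413 to 0.948). The ratios of Klrd1 (0.812, 0.573 to 1.14), Klrk1 (0.905, 0.721 to 1.13), Klra4 (1.22, 0.971 to 1.53), Klrb1c (0.795, 0.46 to 1.33) and Ncr1 (0.787, 0.427 to 1.39) have intervals that include 1. With 1 library per genotype these are differences between the libraries, and genotype, mice and handling cannot be told apart.

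Across all genes of a class, a ratio was counted only where the libraries together held 100 UMIs or more and 1 library had the gene in 5% or more of its cells. In this count rule the log2 ratio of KO over WT was taken after adding 10 CPM to each level. In NK-like cells 7 of the 10 members met it, all but Klrc3, Klrb1c and Ncr1, and their median log2 ratio was -0.60, against 0.016 over all 2113 genes that met it. Only Klre1 (-1.25) was at least 2-fold lower and none was at least 2-fold higher, where 1.37% and 0.331% of all genes were. The NK marker list summed to 10297 CPM in WT and 9094.5 in KO NK-like cells, and the T cell list to 1477 and 904. The part of these in the receptor values was not tested. Among cells with Xist and no Y-linked UMI (32 WT and 15 KO NK-like cells) the log2 ratio of Klrc1 was -1.70 and that of Klre1 -1.67, and among those with Y-linked UMIs and no Xist (57 and 32 cells) -1.09 and -0.91, lower in both.

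In CD8 T-like cells the pattern was another. Klrc1 (484 and 456 CPM, ratio 0.943, 0.861 to 1.03) and Klrc2 (309 and 301, ratio 0.974, 0.87 to 1.09) differed little between the libraries. Klrk1 was lower in KO (373 and 218, ratio 0.584, 0.515 to 0.661), as were Klrd1 (132 and 95.7, ratio 0.728, 0.597 to 0.881) and Klrc3 (104 and 77.9, ratio 0.746, 0.599 to 0.923). Klre1 was higher (21.0 and 37.1, ratio 1.77, 1.23 to 2.52), but no single cluster had an interval apart from 1: the ratio was 0.64 in cluster 2, 1.54 in cluster 5 and 1.70 in cluster 7. Of the 6 members that met the count rule none was at least 2-fold apart, against 0.641% of 5774 genes higher and 1% lower, and their median log2 ratio was -0.23 (-0.0081 over all genes).

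The CD8 T-like values joined clusters that differed. In cluster 5, where Gzma, Itgae and Itga1 led as in tissue-resident cells, the Klrc1 level was 411 CPM in WT but 148 in KO (ratio 0.359, 0.264 to 0.48). Klrc2 was at 248 and 79.6 there (ratio 0.321, 0.209 to 0.474). In cluster 7 Klrc1 was at 520 and 591 and Klrc2 at 436 and 387, with intervals of the ratio that include 1, and Klrk1 was at 542 and 245 (ratio 0.453, 0.374 to 0.547). In cluster 2 Klrd1 was at 92.6 and 17.2, from 238 and 3 UMIs. By the count rule, Klrc1 and Klrc2 were 2 of 4 members at least 2-fold lower in cluster 5 (1.32% of all genes), Klrk1 was 1 of 5 in cluster 7 (0.426%) and Klrd1 1 of 5 in cluster 2 (4.28%). None was at least 2-fold higher, against 1.13%, 1.06% and 1.36% of all genes. Cluster 2 held only 40 KO cells, so members met the rule there mostly through WT UMIs, and the Klrd1 call is not independent of it. With the 3 clusters weighted alike, a calculation added after the data had been seen, the median log2 ratio was -0.45. It was 0.17 in Xist-only cells (118 and 136) and -0.77 in Y-linked-only cells (639 and 53), and the log2 ratio of Klrc1 turned from 0.21 to -1.25 between them, whereas Klrk1 was lower in both (-0.51 and -0.75). The Klrc1 ratio was 1.16 (0.978 to 1.38) in Xist-only cells, an interval that includes 1, and 0.409 (0.301 to 0.544) in Y-linked-only cells. Cluster 7 held 26 of the WT and 105 of the KO Xist-only cells. Among Xist-only cells the log2 ratio of Klrc1 was -0.31 in cluster 2, -0.51 in cluster 5 and 0.16 in cluster 7. The overall Klrc1 ratio thus joined cells with unlike ratios, and the part of the clusters in the split by sex was not tested.

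In ILC1-like cells Klrd1 was lower in KO, at 105 and 25.1 CPM (54 and 19 UMIs, ratio 0.239, 0.134 to 0.409), and so was Klrc2 (230 and 92.5, ratio 0.402, 0.295 to 0.545). Klrc1 (ratio 0.672, 0.509 to 0.886), Klrc3 (0.388, 0.196 to 0.741) and Klre1 (0.254, 0.0815 to 0.684, from 16 and 6 UMIs) were lower as well, while the intervals of Klrk1 (0.866), Klrb1c (0.868) and Ncr1 (0.704) include 1. In the split by sex, Klrd1 had 31 and 1 UMIs in 41 and 35 Y-linked-only cells (log2 ratio -3.51). In 25 and 43 Xist-only cells it had 7 and 7 UMIs (log2 ratio -0.72), and the interval of the ratio (0.541, 0.162 to 1.81) includes 1. Eomes, a T-box factor of NK cells and a marker that parts them from ILC1, had 16 and 4 UMIs in this class, and the NK marker list summed to 6850 and 4316 CPM. Their part in the lower receptor levels was not tested. Of 4 members that met the count rule, Klrc2 was at least 2-fold lower, against 0.844% of 2370 genes, none was at least 2-fold higher (0.506% of all), and the median log2 ratio was -0.50 (0.03 over all). Over all ILC together 4 members met it, with a median of -0.36 (0.038 over all), and Klrc2 (-1.03) was at least 2-fold lower, against 0.672% of 4914 genes, and none higher (0.387%). No member met the rule in ILC2-like or ILC3-like cells.

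**Figure D5:**
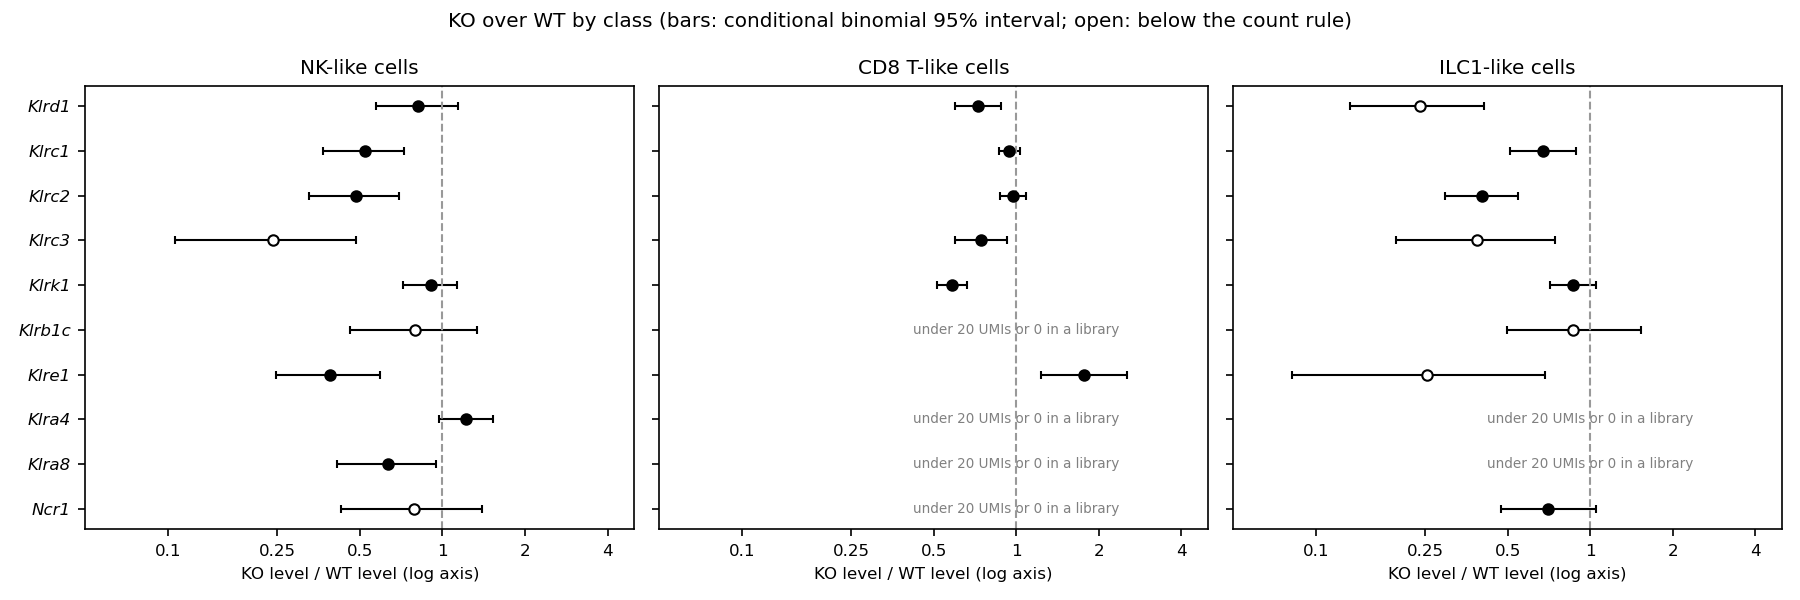
Ratio of the KO to the WT level (x axis, log scale) of each receptor gene (y axis) in NK, CD8 T and ILC1 cells. Bars are conditional binomial 95% intervals, filled points met the count rule, open points did not, and genes with fewer than 20 UMIs in a class or 0 in a library are not drawn. Klrc1 and Klrc2 lie below 1 in NK and ILC1 cells and near 1 in CD8 T cells, and Klre1 lies below 1 in NK and above 1 in CD8 T cells.

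Genes that act with the receptors were taken from a list of other receptors, adaptors, ligands and transcription factors. In NK-like cells 3 of 29 other receptors met the count rule, none of them 2-fold apart: Klra7 (128 and 101 CPM), the pseudogene Klra13-ps (210 and 165) and Klri2 (106 and 98.7). Of 18 adaptor and signalling genes 10 met it, 8 of them below 0 and none 2-fold apart, where 48.3% of all NK genes were below 0 and 51.7% above. Tyrobp, the gene of DAP12, was at 663 in WT and 336 in KO NK-like cells, a log2 ratio of -0.96, and Fcer1g, another adaptor, at 714 and 470. Of 14 transcription factors 10 met it, and Tcf7 (189 and 85.4) and Ikzf2 (873 and 408) were at least 2-fold lower, against 1.37% of all genes, while Tbx21, the gene of T-bet, was at 400 and 555 and Eomes at 305 and 187. Of 16 ligand genes 4 met it, and Raet1e, a ligand gene of NKG2D, was at least 2-fold lower (132 and 40), against the same 1.37%. H2-T23, for Qa-1, had 58 and 18 UMIs (82.3 and 48.0 CPM).

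In CD8 T-like cells 8 of 29 other receptors met the count rule, all 8 with a log2 ratio below 0, where 51% of all genes were below 0 and 49% above. Cd226, an activating receptor of NK and T cells, was the 1 at least 2-fold lower (136 and 61.4), against 1% of all genes. Of 15 adaptors and signalling genes 8 were below 0 and 7 above, none 2-fold apart. Tyrobp was at 29.7 and 38.6 and Fcer1g at 50.2 and 81.4. B cells were at 28.0 and 26.7 for Tyrobp and 30.6 and 31.1 for Fcer1g, so the CD8 T-like values of Tyrobp were near background. Of 11 transcription factors 8 were above 0, among them Eomes (92.7 and 129) and Tcf7 (142 and 210), and none was 2-fold apart. H2-T23 was at 81.9 and 57.9. In these sums Klre1, Eomes and Tcf7 were lower in KO NK-like cells and higher in KO CD8 T-like cells. Tbx21 was higher in KO in both classes, at 419 and 497 CPM in CD8 T-like cells. No link between these genes was tested. Cluster 7, led by Bend4 and Eomes, held 100 of 1046 WT and 199 of 318 KO CD8 T-like cells. Its part in the CD8 T-like values was not tested.

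Across 24 sums, 1 for each of 12 classes in each library, the genes with the pattern most like each member were sought by Pearson correlation of log levels among 15220 genes. The sums share libraries and depth, so the coefficients are descriptions. Klrc1 was most like Tbx21 (r = 0.957), the protease gene Ctsw (0.95) and Ifng (0.945), and Klrc2 was most like the same 3. Klre1 was most like Eomes (0.949). Klra4 and Klra8 were most like Klra13-ps (0.986 and 0.992), followed by Fam184a and Klra7. Ncr1 was most like the chemokine gene Xcl1 (0.875), Klrk1 the serpin gene Serpinb9 (0.93) and Klrd1 the receptor gene Klra5 (0.917). Xcl1, Eomes and Serpinb9 are among the markers that named the NK-like class. Klrc1 and Klrc2 had r = 0.99 with each other, and Klrc1 and Klrd1 0.882.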

How the data were processed

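Single-cell libraries made on the 10x platform were analysed, 1 per genotype. The values are raw UMI counts for each gene and cell barcode, as deposited. Per the file headers the authors made them with Cell Ranger 7.0.0, and the submitters' processing notes name the build GRCm38. Which gene annotation was used, and whether intronic reads counted, was not found in the sources used here.

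Barcodes with at least 200 genes, at least 500 UMIs and at most 20% mitochondrial UMIs passed (5 WT and 34 KO were too low, 57 and 79 above the mitochondrial limit). Scrublet in scanpy 1.11.5 marked 637 (5.85%) and 416 (4.79%) as doublets, which were left out. Both libraries were clustered together (2000 variable genes, 30 components, 20 neighbours, Leiden resolution 1), without 31 genes of the receptor family. Clusters were named from marker lists, and a T cell cluster needed a Cd3e UMI in 25% of its cells. UMIs were summed per class and library. Levels have exact Poisson intervals, shares Clopper-Pearson and ratios conditional binomial intervals, all at 95%, computed with scipy 1.17.1. Several UMIs of 1 cell are not independent, so these intervals are too narrow. A floor of 3 UMIs stands for a count of 0 in a ratio. Joint detection was read after thinning each cell to 1000 UMIs. The intervals and the 2-fold call were checked on simulated independent counts, without added spread between cells. Clustering, class naming, thinning and joint detection were not part of that check.

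Promoter windows came from RefSeq (GRCm38.p6), gene positions from GENCODE M21, which held 99.8% of the gene IDs. All 10 members are named. Of the related lists, up to 4 genes with the largest ratios and Hcst, Tyrobp, H2-T23, Tbx21 and Eomes could be named, and the 3 most alike genes of each member. Members, lists and rules were chosen with earlier results of these data known. Alternatives covered doublets, the mitochondrial limit, clustering, class definition, scaling, the value added, the count filter, thinning depth and the sex of the cells by Xist and Y-linked UMIs.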

Additional observations from a re-analysis of the deposited data

Results flagged for a closer look

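Klre1 differed in direction between classes. Its log2 ratio of KO over WT was -1.25 in NK-like cells (130 and 27 UMIs) and 0.60 in CD8 T-like cells (85 and 52 UMIs), with intervals of the ratio on opposite sides of 1. Within the CD8 T-like clusters the ratio was 0.64 (0.0753 to 2.45) in cluster 2, 1.54 (0.767 to 2.97) in cluster 5 and 1.70 (0.825 to 3.85) in cluster 7, all intervals that include 1, and with the clusters weighted alike the log2 ratio was 0.32. With 1 library per genotype the difference between the classes was not tested.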

How the results depend on the processing

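No paired analysis was possible because each genotype had 1 library. With each library clustered alone, the KO NK-like class held more cells than in the main clustering. The median log2 ratio of the members in NK-like cells (-0.60) lay between -1.14 (each library clustered alone) and -0.44 (classes from marker UMIs) over its 13 alternatives. That in CD8 T-like cells (-0.23) was 0.17 in Xist-only cells, -0.77 in Y-linked-only cells and -0.45 with the CD8 T clusters weighted alike, an alternative chosen after seeing the data. That in ILC (-0.36) was 0.67 with doublets kept, -2.31 with each library clustered alone and -0.86 in Xist-only cells, and the cause was not tested. With doublets kept, Klrk1 was the only member that met the count rule in ILC, so the 0.67 is the log2 ratio of 1 gene. With each library clustered alone, Klrc1 (-2.31), Klrc2 (-2.63) and Klrk1 (-1.81) met it and Ncr1 did not. ILC1 were not named as a class with doublets kept, at resolution 0.5 or with each library clustered alone. In the main clustering, ILC1-like cells held 108 of the 117 Klrc1 UMIs of WT ILC and 107 of 117 in KO. The share of Klrc1 cells with a Klrd1 UMI moved with depth: the WT and KO values of CD8 T-like cells were 10.8% and 6.38% at 1000 UMIs, 19.4% and 16.3% at 2000, and 32.7% and 22.1% without thinning. In WT ILC it was 5.56%, 32.5% without thinning and 0 with each library clustered alone. Klrc1, Klrc2 and Klre1 were lower in KO NK-like cells in 13 of 13 alternatives, Klra8 in 12 of 12, Klrd1 in 11 of 13 (-1.28 to 0.096), and Klra4 was higher in 10 of 13 (-1.19 to 0.41). The number of members higher in NK-like than in CD8 T-like cells lay between 6 and 8 in WT and 5 and 7 in KO. In CD8 T-like cells Klrk1 was lower in 14 of 14 (-0.86 to -0.49) and Klre1 higher in 13 of 13. Changing the value added or the count filter cannot turn the direction of a ratio. These counts of alternatives therefore include some that could not have differed.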
